A study of Mus musculus with 60 samples.

Results

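The 9 genes described here, Mcpt8, Prss34, Cpa3, Ms4a2, Fcer1a, Cd200r3, Gata2, Hdc and Siglecf, are markers of basophils and eosinophils, and they were followed in whole blood RNA of mice given BIO 300, total body irradiation (TBI) or both. They were taken as a fixed list from the 49315 genes of the count tables. Of these, 8 were matched by name and Siglecf by its identifier, since the tables list it under the name Siglec5. The 60 male CD2F1 mice, bought at 5 to 6 weeks of age, fell into 10 groups of 6, and each mouse was bled once, at the end, from the inferior vena cava. All were gavaged with vehicle (water, methylcellulose and PVP K25) or with BIO 300, an amorphous solid dispersion of synthetic genistein, 2 times a day for 6 days. The doses of BIO 300 were 50 (Low), 100 (Med) and 200 mg/kg (High), and blood was taken 24 h (Day 0) or, from other mice, 48 h (Day 1) after dosing ended. The vehicle and 200 mg/kg treatments were also combined with 9.2 Gy TBI on Day 0, and the blood of these mice was taken 24 h later, on Day 1. BIO 300 was thus always given before irradiation, and 50 and 100 mg/kg were not combined with TBI.

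Basophils and eosinophils are rare granulocytes of blood. Basophils carry the high-affinity IgE receptor, whose alpha chain (Fcer1a) binds IgE and whose beta chain (Ms4a2) amplifies the signal through the shared gamma chain (Fcer1g), and they release histamine, made from histidine by the enzyme encoded by Hdc. Mcpt8 and Prss34 encode serine proteases of the basophil granule and are the most basophil-restricted of the 9 genes in the mouse. Cpa3, the carboxypeptidase of mast cell granules, is also used by basophils. Cd200r3 encodes an activating surface receptor of basophils and mast cells. Gata2 is a transcription factor of basophils and mast cells that is also needed in stem and progenitor cells and is present in megakaryocytes. Siglecf, a sialic acid-binding inhibitory receptor, marks eosinophils in mouse blood.

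All 9 genes are protein coding, and none shares an exon with another gene in the GENCODE M21 annotation of GRCm38. The granule protease genes lie at chr14:56082166-56085273 on the minus strand (Mcpt8, ENSMUSG00000022157), chr17:25298394-25300165 on the plus strand (Prss34, ENSMUSG00000056399) and chr3:20215620-20242181 on the minus strand (Cpa3, ENSMUSG00000001865). The receptor genes lie at chr19:11615523-11623719, minus strand (Ms4a2, ENSMUSG00000024680), chr1:173221284-173227214, minus strand (Fcer1a, ENSMUSG00000005339), chr16:44943678-44981380, plus strand (Cd200r3, ENSMUSG00000036172), and chr7:43351341-43359531, plus strand (Siglecf, ENSMUSG00000039013). Gata2 (ENSMUSG00000015053) is at chr6:88193891-88207032 on the plus strand and Hdc (ENSMUSG00000027360) at chr2:126593667-126619299 on the minus strand.

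The promoters of 4 members are printed because these genes had low counts after TBI, in most mice or, for Cpa3, in part of them. The promoters also differ in a sequence feature that the list did not use, the letters recognised by GATA factors. They are RefSeq sequences on GRCm38.p6, from 250 bases before to 50 bases after the start, at chr19:11623670-11623969, chr16:44943428-44943727, chr3:20242132-20242431 and chr14:56085148-56085447. Each is given on its gene's strand. Capitals mark the letters AGATAA on either strand, or one of the 3 related forms AGATAG, next TGATAA, and last TGATAG. Marked matches abut in Cd200r3 but do not overlap.
Ms4a2: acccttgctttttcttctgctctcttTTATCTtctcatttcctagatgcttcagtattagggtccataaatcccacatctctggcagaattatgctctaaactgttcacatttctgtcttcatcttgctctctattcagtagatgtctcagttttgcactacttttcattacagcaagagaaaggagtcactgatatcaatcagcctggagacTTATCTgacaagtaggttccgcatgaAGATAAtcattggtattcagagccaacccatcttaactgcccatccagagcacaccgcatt
Cd200r3: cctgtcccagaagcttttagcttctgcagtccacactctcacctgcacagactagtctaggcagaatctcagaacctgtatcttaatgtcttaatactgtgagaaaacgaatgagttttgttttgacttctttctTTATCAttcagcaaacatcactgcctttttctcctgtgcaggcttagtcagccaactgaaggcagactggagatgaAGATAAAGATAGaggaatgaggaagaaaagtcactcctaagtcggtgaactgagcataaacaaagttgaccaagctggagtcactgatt
Cpa3: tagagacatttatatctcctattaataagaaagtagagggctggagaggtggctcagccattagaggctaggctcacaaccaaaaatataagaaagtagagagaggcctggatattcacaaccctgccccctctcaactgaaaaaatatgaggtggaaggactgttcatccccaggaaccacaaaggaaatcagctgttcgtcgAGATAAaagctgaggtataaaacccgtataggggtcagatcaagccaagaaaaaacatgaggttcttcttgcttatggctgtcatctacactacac
Mcpt8: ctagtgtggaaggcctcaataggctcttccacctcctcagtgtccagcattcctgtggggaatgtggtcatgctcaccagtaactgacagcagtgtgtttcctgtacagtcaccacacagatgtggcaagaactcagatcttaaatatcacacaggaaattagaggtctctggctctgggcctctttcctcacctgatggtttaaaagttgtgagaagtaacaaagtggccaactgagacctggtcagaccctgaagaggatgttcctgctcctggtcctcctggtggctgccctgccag
The Ms4a2 promoter held 3 matches, centred at -221, -34 and -8 relative to the start. The Cd200r3 promoter also held 3, at -112, -36 and -30, and Cpa3 had 1 at -43. Mcpt8 had none in this window, as was the case for both Gata2 promoters. Prss34 (-28), Fcer1a (-89) and Hdc (-218) had 1 match each and Siglecf had 2, at 5 and 14. Of the 10 promoters of the 9 genes, 7 held a match, compared with 29.8% of all 32851 promoters in the table. At least 2 matches were found in 7.77% of all promoters. These matches describe the letters and are not measured binding sites.

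Total counts per mouse ranged from 15099415 to 45589415. Expression is given as CPM, the count relative to the size of the library, with the sizes adjusted by TMM, a normalization that aligns the bulk of the genes, over all 60 mice. Genes of red cells, platelets and neutrophils, the expected main sources of RNA in whole blood, were detected in every group. The hepatocyte gene Alb exceeded 100 CPM in 10 libraries, all from odd-numbered mice (10 of 30 odd and 0 of 30 even), including vehicle-treated mice 49 and 51 and BIO 300-treated mouse 57 among the irradiated mice. For members, results that rest on these libraries are given with and without them. For genes of the other lists this was not done.

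In vehicle-treated mice on Day 1 the median levels per kilobase of exon were 3.03 CPM for Gata2, 2.36 for Cpa3, 1.99 for Ms4a2, 1.73 for Siglecf, 1.51 for Hdc, 1.44 for Mcpt8, 1.28 for Fcer1a, 0.974 for Cd200r3 and 0.246 for Prss34. Depth limited the rarest of these transcripts. The median count of Prss34 was 15 at most and lay under 10 in 4 of the 10 groups. Median counts under 10 were found in 3 groups for Mcpt8, 2 each for Ms4a2, Fcer1a and Cd200r3, and 1 for Cpa3. Gata2, Hdc and Siglecf had medians of at least 524, 154.5 and 70 counts in every group. When the groups were ordered by median level, neighbouring groups overlapped for every member except at 1 step each for Gata2 (50 and 100 mg/kg, Day 1), Hdc (200 mg/kg on Day 1 and 200 mg/kg with TBI) and Ms4a2 (200 mg/kg with TBI and 200 mg/kg on Day 1).

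**Figure D1:**
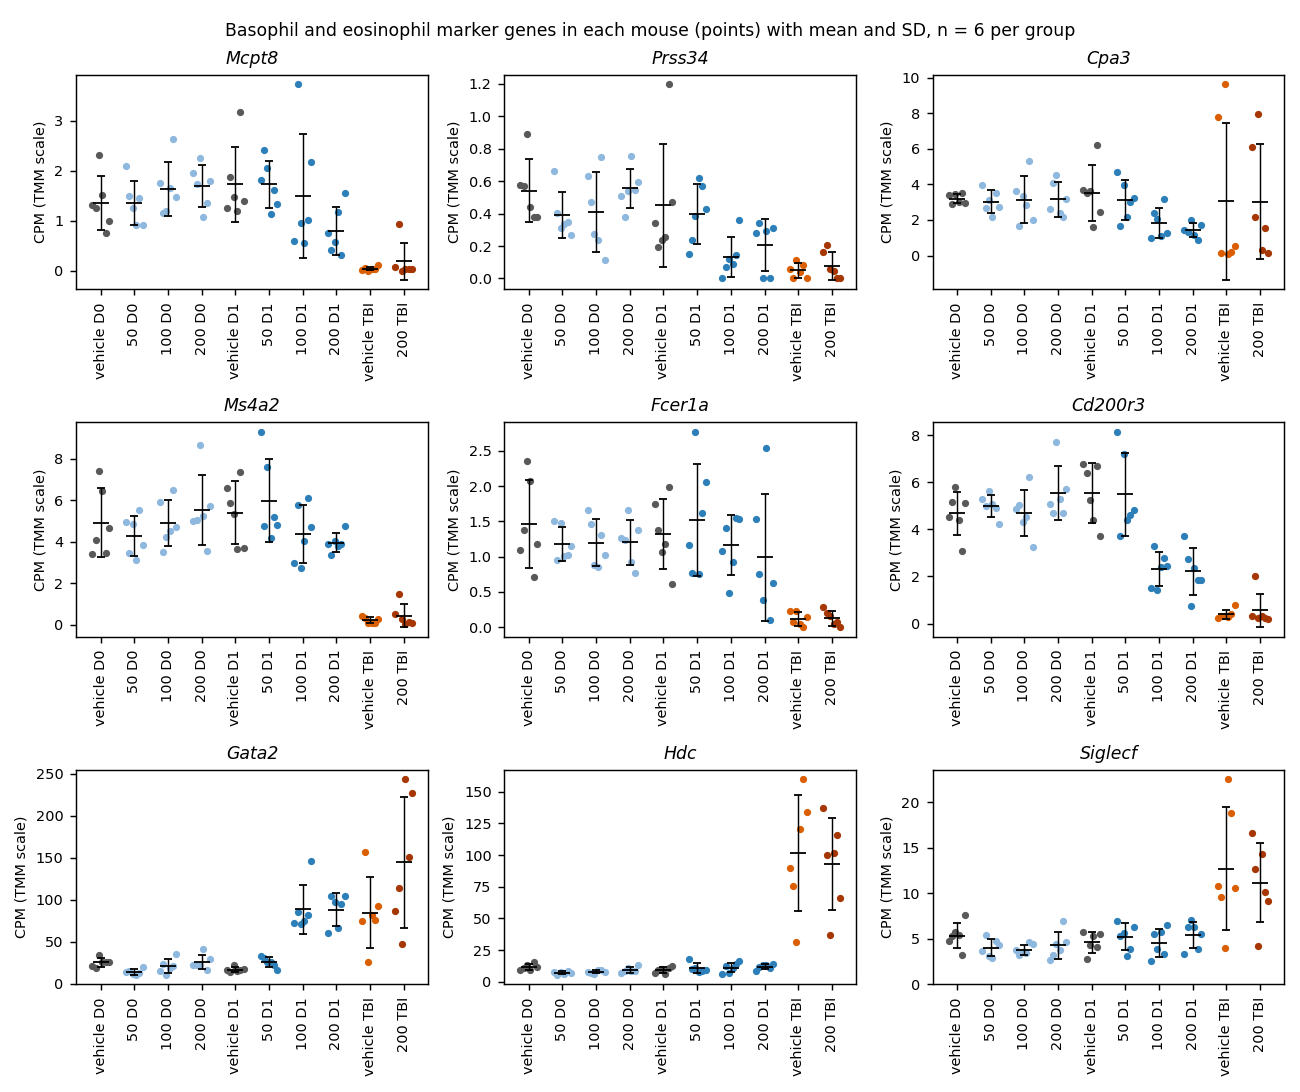
Each point is the CPM (TMM scale) of 1 mouse, with the mean and SD of the 6 mice of each group on the horizontal axis, in 1 panel per gene. Mcpt8, Ms4a2 and Cd200r3 drop close to 0 in both irradiated groups, Hdc is raised in these 2 groups, and Gata2 is raised in them and at 100 and 200 mg/kg on Day 1.

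The first question was what TBI did to these genes in mice without BIO 300. At 24 h after 9.2 Gy, 5 basophil genes had fallen (Mcpt8, Prss34, Ms4a2, Fcer1a and Cd200r3), and no irradiated mouse reached the lowest unirradiated mouse for any of them. Gata2, Hdc and Siglecf had risen, and Cpa3 did not pass the test. A gene was called when its Benjamini-Hochberg adjusted p in edgeR's quasi-likelihood test, over all genes tested, was under 0.05 and its absolute log2 fold change was over 1. The 8 calls among 9 members compare with 36% of the 25146 genes tested. The 5 that fell compare with 16.4% called lower, and the 3 that rose with 19.6% called higher. Groups without overlap were found for 14% of all genes among lower and 11.1% among higher genes. In blood, fewer cells of a type and less RNA per cell cannot be told apart.

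Mcpt8 had the largest decrease among the 9 genes. Unirradiated vehicle-treated mice on Day 1 had 42 to 101 counts, with a median level of 1.44 CPM (1.21 to 3.18), whereas the irradiated mice had 0 to 3 counts, 7 over the 6 mice, and a highest level of 0.111 CPM. The difference was a log2 fold change of -5.17 (standard error 0.53, n = 6 per group, edgeR adjusted p = 1.4e-05), with a 95% interval of -6.31 to -4.04. Every irradiated mouse was below every unirradiated mouse. Prss34, which started lower, went from 8 to 38 counts to 0 to 4, and fell by 3.01 on the log2 scale (standard error 0.67, edgeR adjusted p = 0.0028).

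Both IgE receptor chains of the list fell. Ms4a2 had a median of 5.59 CPM (3.64 to 7.37) without and 0.205 CPM (0.0799 to 0.411) with TBI, or 127 to 238 against 2 to 14 counts. Its log2 fold change was -4.64 (standard error 0.45, edgeR adjusted p = 1.0e-05). Fcer1a had 23 to 63 counts without and 0 to 8 with TBI and fell by 3.38 (standard error 0.55, edgeR adjusted p = 0.00033). Fcer1g, the gamma chain that neutrophils, monocytes and platelets also use, rose in the same mice (log2 fold change 1.72), as did Lyn (1.93), a kinase that acts on the receptor, and Lcp2 (1.26), an adaptor. The alpha and beta chains and the shared gamma chain thus changed in opposite directions in the same libraries. Of the 12 other genes of IgE receptor signalling tested, 4 rose and 2 fell.

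Cd200r3 fell from a median of 5.83 CPM (3.74 to 6.77) to 0.336 CPM (0.235 to 0.778). The decrease in the edgeR fit was 14.2-fold (log2 fold change -3.82, standard error 0.32, edgeR adjusted p = 4.9e-06). Even its highest irradiated mouse, with 21 counts, stood well below the lowest unirradiated mouse with 142.

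Cpa3 split the irradiated mice. Its counts were 265 and 342 in vehicle-treated mice 49 and 51, and 2, 2, 5 and 14 in the other 4, so that levels ranged from 0.0799 to 9.64 CPM around the unirradiated range of 1.61 to 6.24 CPM. With all mice, the log2 fold change was -0.25 (95% interval -2.36 to 1.86, edgeR adjusted p = 0.85). Without the libraries in which Alb exceeded 100 CPM, which include mice 49 and 51 and the unirradiated mouse 29, Cpa3 was called lower, with a log2 fold change of -3.54 (edgeR adjusted p = 6.01e-06). Against vehicle-treated mice on Day 0 it was likewise -0.08 with and -3.595 without those libraries.

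In the irradiated BIO 300-treated mice the Cpa3 values were graded. There were 416 counts in mouse 57, 150 in mouse 55, 43 and 42 in mice 59 and 56, and 6 and 3 in mice 58 and 60, with a median of 1.87 CPM. Mouse 55 had no raised Alb. The summed level of 10 mast cell genes other than Cpa3 was highest in the same mice, at 44.7 CPM (mouse 51), 38.4 (mouse 49), 30.4 (mouse 55) and 26.8 (mouse 57), and between 4.597 and 17.9 CPM in the other 8. In unirradiated mice it lay between 2.47 and 19.05 CPM. The 10 genes include Kit, which also belongs to the stem and progenitor cell list. Of the mast cell genes, Mcpt1 was at 0 in every irradiated vehicle-treated mouse, while Tpsb2, a tryptase gene, reached 12.28 CPM there. Summed hepatocyte genes stood at 24060, 9564 and 6310 CPM in mice 51, 57 and 49 and at 4.73 CPM in mouse 55, and their part in the Cpa3 values was not tested. The ratio of Cpa3 to Ms4a2, a quantity chosen after the values were seen, lay between 0.222 and 1.01 in all unirradiated mice and between 0.4 and 85.5 in irradiated ones.

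**Figure D2:**
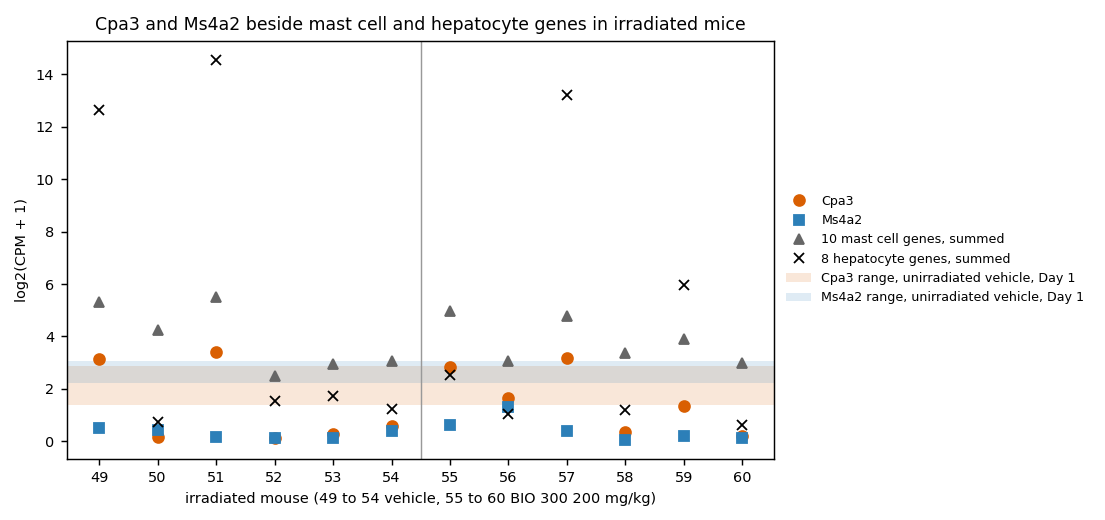
The 12 irradiated mice are on the horizontal axis and log2(CPM + 1) is on the vertical axis, with shaded bands for the ranges of Cpa3 and Ms4a2 in unirradiated vehicle-treated mice on Day 1. Cpa3 (circles) is at the top of or above its band in mice 49, 51, 55 and 57, where the summed mast cell genes (triangles) are also highest, while Ms4a2 (squares) is below its band in all 12.

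Gata2 rose where the basophil protease and receptor genes fell. Its median went from 16.3 CPM (14.0 to 22.3) to 79.1 CPM (25.7 to 157) with TBI, a log2 fold change of 2.30 (standard error 0.33, edgeR adjusted p = 0.00013). All 6 irradiated mice were above all 6 unirradiated mice of Day 1, and the lowest of them was mouse 51. Among the other transcription factors of basophils and mast cells, 5 of 12 rose and 2 fell, and the called ones with the highest levels were Tal1 (log2 fold change 2.59), Stat5b (1.10) and Gata1 (2.73). Platelet genes moved with Gata2, with all 6 of the list higher, among them Ppbp (2.33), Tubb1 (2.78) and Pf4 (2.48). Of the stem and progenitor cell genes reported here, Mecom (3.00), Cd34 (2.56), Meis1 (2.32) and Kit (1.27) rose and Flt3 fell by 3.67.

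Hdc had the largest increase of the 9 genes. Its median was 9.66 CPM (5.91 to 12.5) without TBI and 105 CPM (31.4 to 160) with it, again without overlap. The increase in the edgeR fit was 10.8-fold (log2 fold change 3.44, standard error 0.37, edgeR adjusted p = 2.0e-05). Of 5 other histamine pathway genes tested, 3 rose and 1 fell. Slc18a2, which loads histamine into granules, rose by 1.39, the receptor Hrh2 by 1.84 and Hnmt, which degrades histamine, by 2.54, while the receptor Hrh4 fell by 3.04. The neutrophil list rose in all 8 of its genes, including Csf3r (3.19), S100a9 (2.67) and Cxcr2 (3.13). The summed neutrophil level in vehicle-treated mice was 434 to 706 CPM on Day 1 and 1183 to 6670 CPM after TBI, with mouse 51, lowest for Hdc, also lowest here. Hdc per 1000 CPM of neutrophil genes, a ratio chosen after the values were seen, lay between 11.5 and 20.9 with vehicle on Day 1, between 19.5 and 26.6 with vehicle and TBI and between 20.7 and 30.4 with 200 mg/kg and TBI. The part of the neutrophil genes in the rise of Hdc was not tested.

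Siglecf rose less and with overlap, from a median of 4.81 CPM (2.78 to 5.72) to 10.7 CPM (4.06 to 22.6), with a log2 fold change of 1.44 (standard error 0.36, edgeR adjusted p = 0.0056). Most other eosinophil genes were not called. Of 10 tested, 2 rose, Alox15 (log2 fold change 3.12, with 878 CPM in mouse 51 and a group median of 51.4) and Cebpe (1.24), and none fell. Mouse 51 had the highest Alb of all libraries, and values of Alox15 without the libraries of raised Alb are not given. Ccr3, the eotaxin receptor, had a log2 fold change of 0.51 (edgeR adjusted p = 0.32). The granule gene Epx, encoding eosinophil peroxidase, was near 0 in both groups, at 0 to 0.143 CPM. Of 6 other Siglec family genes, 3 rose and 3 fell, with Cd33 at 2.60, Siglece at 3.00 and the B cell gene Cd22 at -2.46.

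**Figure D3:**
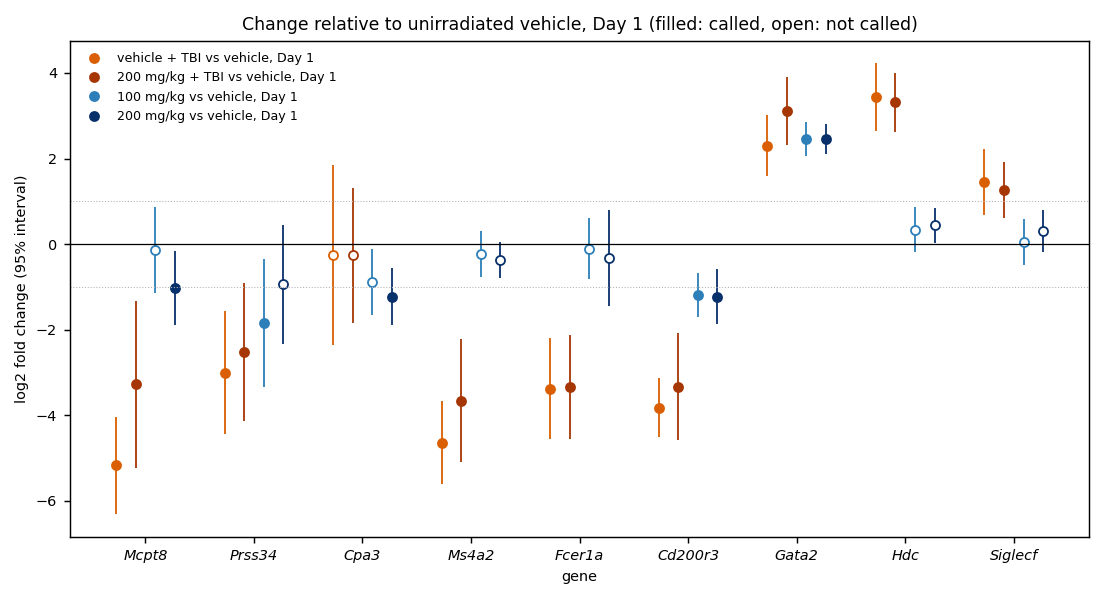
Points are log2 fold changes from edgeR with 95% intervals for each of the 9 genes in 4 comparisons with the same 6 unirradiated vehicle-treated mice of Day 1, filled where called, and dotted lines mark the size limit of 1. After TBI 5 genes are filled below 0 and 3 above it with either treatment, whereas Gata2 and Cd200r3 are the genes filled at both 100 and 200 mg/kg.

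Compared with vehicle-treated mice on Day 0, the same 8 members were called in the same directions, against 26.9% of genes called in either direction, and this comparison shares its irradiated mice with the one above. The log2 fold changes were -4.68 for Mcpt8, -4.37 for Ms4a2, -3.45 for Cd200r3, -3.44 for Fcer1a and -3.19 for Prss34. They were 3.24 for Hdc, 1.86 for Gata2 and 1.36 for Siglecf. Groups overlapped here for Gata2 and Siglecf.

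Other genes used by basophils did not follow the 5 that fell as a group. Of the 14 tested, 6 rose and 4 fell, with a median log2 fold change of 0.91 against 0.09 over all genes, while the 9 members had a median of -3.01. Csf2rb (2.02), Itga2 (2.10) and Cd244a (1.14), the called ones with the highest levels, are also used by other leukocytes or platelets. Cyp11a1, a steroid-synthesis enzyme of basophils and mast cells, fell by 3.46 (standard error 0.52, edgeR adjusted p = 0.00020). The called members of other lists were 4 of 4 B cell and 4 of 4 T cell genes lower, 6 of 6 endothelial genes and 1 adipocyte gene higher, and none of 4 red cell and 8 hepatocyte genes. Of 9 mast cell genes tested, 1 was called higher.

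The next comparisons asked whether 200 mg/kg BIO 300 before TBI altered these values. In the irradiated BIO 300-treated mice, the same 8 members were called against unirradiated vehicle-treated mice on Day 1 (36.6% of genes in either direction), with log2 fold changes of -3.28 for Mcpt8, -2.53 for Prss34, -3.66 for Ms4a2, -3.35 for Fcer1a, -3.33 for Cd200r3, 3.11 for Gata2, 3.32 for Hdc and 1.27 for Siglecf. Siglecf was at 0.62, short of the limit, with total counts. Against 200 mg/kg without TBI on Day 1, 4 were called (20.6% of genes in either direction). Ms4a2 (-3.23), Fcer1a (-2.92) and Cd200r3 (-2.03) were lower and Hdc (2.89) higher. Mcpt8, at -2.15, missed the limit with an edgeR adjusted p of 0.11.

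Between the irradiated groups themselves, 0 of the 9 members were called with edgeR (0% of 24916 genes) and 0 with DESeq2. An unadjusted p under 0.05 was found for 0 members and for 688 of all genes, and the adjusted p was 1.00 for each member. The fit of all 60 mice called 190 genes, 179 of them higher, and 0 members. The intervals of the differences were wide. With BIO 300 minus vehicle they ran from -0.62 to 4.25 for Mcpt8 (log2 fold change 1.82), -2.73 to 2.60 for Cpa3 (-0.07), -0.77 to 2.57 for Ms4a2 (0.90), -0.90 to 1.75 for Cd200r3 (0.43), -0.24 to 1.64 for Gata2 (0.70), -0.99 to 0.61 for Hdc (-0.19) and -1.09 to 0.61 for Siglecf (-0.24). These intervals do not show that the groups were alike. For Cpa3 the estimate rests on mice 49, 51 and 57, which had raised Alb. Without them, vehicle-treated mice had 0.134, 0.0799, 0.209 and 0.519 CPM of Cpa3. The BIO 300-treated mice then had 6.11, 2.17, 1.56, 0.289 and 0.143 CPM, of which 0.289 and 0.143 lay within the vehicle range. The highest value was that of mouse 55, where the summed mast cell genes were also raised (30.4 CPM). With the libraries of raised Alb left out, 0 of 21907 genes were called.

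One mouse decided several of these estimates. Mouse 56 of the irradiated 200 mg/kg group had 18 counts of Mcpt8 against 0 to 2 in the other 5 mice, 29 of Ms4a2 against 1 to 16, and 39 of Cd200r3 against 4 to 13. At still lower counts, it did not stand apart for Prss34 (4 counts, 0 to 4 in the group) or Fcer1a (4 counts, 0 to 8 in the group). Without it, the difference between the irradiated groups was -0.26 for Mcpt8 and -0.59 for Cd200r3, and the difference from unirradiated vehicle on Day 1 became -5.39 for Mcpt8, -4.57 for Ms4a2 and -4.36 for Cd200r3. Against 200 mg/kg without TBI, Mcpt8 then reached -4.23 and was called, making 5 members.

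Whether the effect of 200 mg/kg differed with TBI was tested as an interaction in the 24 mice of the 4 groups. It was called for Mcpt8 (3.02, standard error 1.13, edgeR adjusted p = 0.041), Cd200r3 (1.87, standard error 0.68, edgeR adjusted p = 0.038) and Gata2 (-1.53, standard error 0.47, edgeR adjusted p = 0.015), against 29.6% of genes. Gata2 was higher with 200 mg/kg than with vehicle without TBI, and the corresponding difference was smaller with TBI. Without mouse 56, the interaction was 0.96 for Mcpt8 (edgeR adjusted p = 0.50) and 0.87 for Cd200r3 (0.17), and neither was called, whereas Gata2 was still called at -1.47. With total counts the interaction for Gata2 was -0.36 and not called, so this call depended on the scaling. Relative to the median of all genes it was -2.04, compared with -2.13 with TMM. Subtracting the median removes most of the difference in scaling, so these 2 values do not restore the call. For Cpa3 the interaction was 1.37 and not called with all mice, and was called at 4.19 without the Alb libraries. The irradiated BIO 300-treated mice of that fit still included mouse 55, with 6.11 CPM of Cpa3 and raised mast cell genes.

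In unirradiated mice the design asked for the effect of each dose at each time. At 100 and 200 mg/kg on Day 1, Gata2 rose and Cd200r3 fell at both doses, without overlap between groups. Such separation was found among higher genes for 17.2% and 16.5% of all genes at the respective doses and among lower genes for 30.5% at either dose. The members called were 3 of 9 at 100 mg/kg, against 48.8% of all genes in either direction, and 4 of 9 at 200 mg/kg, against 47.8%, so the members were called no more often than genes in general. Both doses were compared with the same 6 vehicle-treated mice.

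Gata2 stood at a median of 78.9 CPM (70.7 to 146) at 100 mg/kg and 96.3 CPM (59.9 to 105) at 200 mg/kg, with vehicle at 16.3 CPM (14.0 to 22.3). The log2 fold changes were 2.45 (standard error 0.18, edgeR adjusted p = 8.2e-08) and 2.46 (edgeR adjusted p = 2.4e-08), or 5.47-fold and 5.49-fold. All 12 mice at these doses were far above the vehicle range. Platelet and red cell genes moved with it, with 6 of 6 and 4 of 4 higher at both doses, and so did 6 and 5 of 6 endothelial genes. B cell and T cell genes were lower, 4 of 4 in each list at either dose. The summed platelet genes were at 1718 to 3378 CPM with vehicle, 12640 to 26820 CPM with 100 mg/kg and 12030 to 20970 CPM with 200 mg/kg. Gata2 per 1000 CPM of platelet genes, a ratio chosen after the values were seen, had a median of 7.95 with vehicle, 5.39 at 100 mg/kg, 4.99 at 200 mg/kg, and 6.70 and 8.70 in the irradiated vehicle and 200 mg/kg groups. The part of the platelet genes in the rise of Gata2 was not tested. Of the other transcription factors 5 and 4 of 12 rose, among them Tal1 (2.79 and 2.78), Lmo2 (1.26 and 1.37) and Zfpm1 (1.55 and 1.70).

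**Figure D4:**
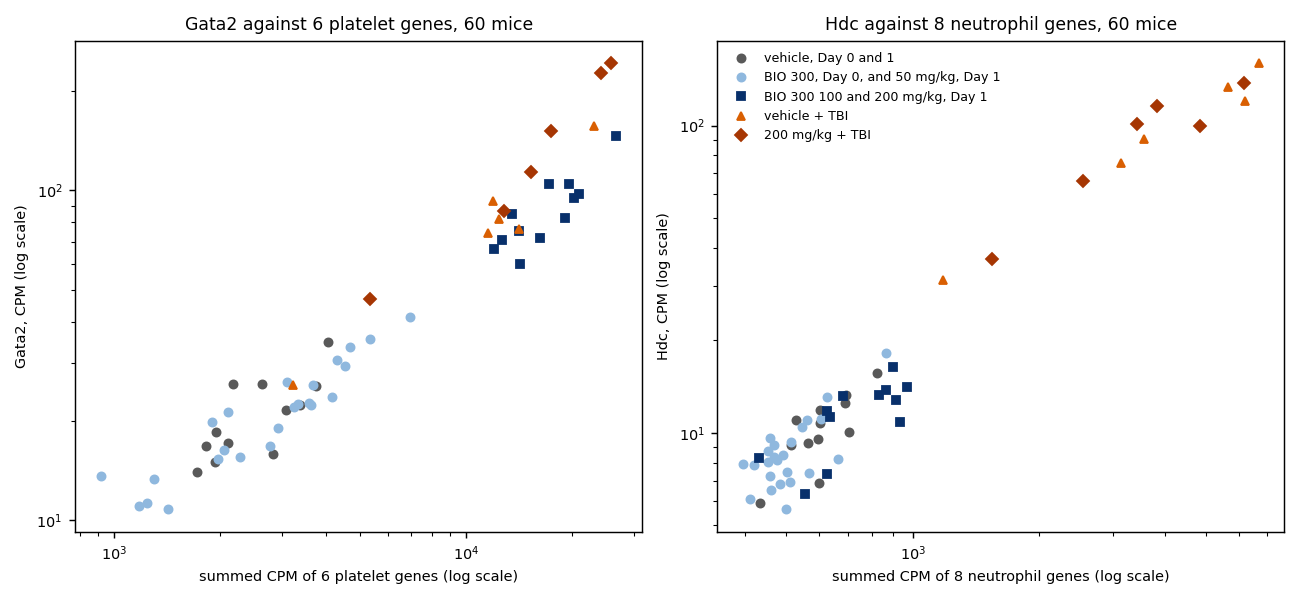
Each point is 1 of the 60 mice, with the CPM of Gata2 against the summed CPM of 6 platelet genes (left) and the CPM of Hdc against that of 8 neutrophil genes (right), all on log axes. Mice at 100 and 200 mg/kg on Day 1 join most irradiated mice at the upper right for Gata2 but stay with the other unirradiated mice for Hdc. Irradiated mouse 51 lies among the other unirradiated mice for Gata2.

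Cd200r3 had levels of 1.44 to 3.31 CPM at 100 mg/kg and 0.766 to 3.71 CPM at 200 mg/kg, below the lowest vehicle-treated mouse at 3.74 CPM. The log2 fold changes were -1.19 (standard error 0.24, edgeR adjusted p = 0.00069) and -1.23 (edgeR adjusted p = 0.0025), and without the Alb libraries the value at 100 mg/kg was -0.99, just short of the limit on size. Prss34 was called lower at 100 mg/kg, where it had 0 to 4 counts (log2 fold change -1.84, edgeR adjusted p = 0.032), but the call was lost without mouse 29, 37, 38 or 40 or without the Alb libraries (-0.86). At 200 mg/kg its log2 fold change was -0.94. Cpa3 was called at 200 mg/kg (-1.23, edgeR adjusted p = 0.0036) and not at 100 mg/kg (-0.89). It missed the limit at 200 mg/kg without the vehicle-treated mouse 29 (-0.97) or without the Alb libraries (-0.96). Mcpt8 was just past the limit at 200 mg/kg (-1.02, edgeR adjusted p = 0.040), where it had 3 to 25 counts, and the call ended when mouse 26, 27, 29, 43, 44, 45 or 47 was left out, with RLE size factors (-0.98) and with DESeq2 (-0.97).

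The IgE receptor chains, Hdc and Siglecf did not pass the test at either dose. Ms4a2 had log2 fold changes of -0.23 and -0.38, Fcer1a of -0.11 and -0.33, Hdc of 0.34 and 0.44, and Siglecf of 0.05 and 0.30, at 100 and 200 mg/kg. Ms4a2 at 200 mg/kg lay between 3.37 and 4.78 CPM in all 6 mice, overlapping the vehicle range of 3.64 to 7.37 CPM. Of the 12 other IgE receptor signalling genes, 2 rose and 2 fell for 100 mg/kg, and 3 rose and 2 fell for 200 mg/kg. Among these, Lyn rose by 2.17 and 2.25 and Fcer1g by 1.39 and 1.49, whereas Plcg1, a phospholipase, fell by 1.71 and 1.57. In the histamine pathway 1 of 5 genes rose, Slc18a2 (1.37 and 1.51), and 2 fell, Hrh2 (-1.60 and -1.32) and Hrh1 (-2.10 and -3.66). The neutrophil list had 2 of 8 genes higher at 100 mg/kg and 0 at 200 mg/kg. Other basophil genes were split at both doses, with 4 of 14 higher and 3 lower, and the mast cell list had 1 of 8 higher.

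These directions must be read against the scaling. Over all genes, the median log2 fold change with TMM was -0.38 for 100 and -0.48 for 200 mg/kg. It was -1.76 and -1.96 when libraries were scaled by total counts. With total counts 9 members were called for 100 and 8 for 200 mg/kg. For each dose 8 of them were lower, and Gata2 stood at 1.04 and 0.91. Of all genes called, 6.24% and 4.42% were then higher, whereas with TMM the higher and lower counts were 4314 and 7249 for 100 mg/kg and 4073 and 7168 for 200 mg/kg. Relative to the median gene, the values hardly moved, because a change of scaling shifts all genes of a comparison by nearly the same amount. These relative values therefore cannot show which scaling gives the right direction. Gata2 stood 2.83 above it at 100 mg/kg with TMM and 2.80 above it with total counts, and 2.94 and 2.86 above it at 200 mg/kg. Cd200r3 was at -0.81 and -0.85 relative to the median at 100 mg/kg and at -0.75 and -0.76 at 200 mg/kg. Ms4a2 was within 0.15 of it in all these settings, and Hdc and Siglecf, whose sign turned with total counts, were 0.43 to 0.92 above it. After TBI in vehicle-treated mice the shift was smaller, from 0.09 to -0.28, and all 8 calls held, while the share of higher genes among all called was 35.5% with total counts (4920 higher and 4122 lower with TMM).

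At the other times and doses no member was called. With 50 mg/kg on Day 0, when 4.5% of genes were called, Gata2 (log2 fold change -0.84, edgeR adjusted p = 0.0061) and Hdc (-0.71, edgeR adjusted p = 0.0071) passed the p limit but not the limit on size. Here too the scaling set the direction of most genes, with 31 higher and 1072 lower with TMM and 89.3% of the called genes higher with total counts. Hdc lay between 5.64 and 8.48 CPM there and between 9.17 and 15.7 CPM with vehicle, without overlap, as for 4.39% of all genes in that direction. Scaled by total counts, Hdc lay between 7.86 and 16.9 CPM with 50 mg/kg and between 9.67 and 15.4 CPM with vehicle, and Gata2 between 19.2 and 35.7 and between 25.4 and 34.1 CPM, so the groups then overlapped for both genes. At 100 mg/kg on Day 0, 200 mg/kg on Day 0 and 50 mg/kg on Day 1, and between the vehicle groups of the 2 days, 0% of genes were called by edgeR. Unadjusted p-values under 0.05 were found for 2, 0, 1 and 1 of the 9 members, and for 726, 2145, 4458 and 3007 genes in all, and DESeq2 called 0 members and 2, 2, 68 and 37 genes in all. For Gata2 the log2 fold change with 50 mg/kg on Day 1 was 0.62 (edgeR adjusted p = 0.10).

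The difference between the days was itself tested. For 100 mg/kg, the effect on Day 1 exceeded that on Day 0 by 2.73 for Gata2 (edgeR adjusted p = 7.5e-07) and was lower for Cd200r3 (-1.20, edgeR adjusted p = 0.0017), 2 of 9 members against 42% of genes. For 200 mg/kg, 4 of 9 were called against 36.7%, namely Gata2 (2.44, edgeR adjusted p = 4.3e-07), Cd200r3 (-1.48, 0.0010), Mcpt8 (-1.34, 0.024) and Cpa3 (-1.21, 0.0090). Without the Alb libraries, 1 member was called at 100 mg/kg and 2 at 200 mg/kg.

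Variation between mice of the same group was described with Spearman's rho of the deviations of log2(CPM + 1) from the group mean over the 60 mice, over 14591 genes, those whose counts averaged 20 or more and the members. The genes most like Mcpt8 were Cyp11a1 (rho 0.605), Ms4a2 (0.596), Csf2rb2 (0.509), Tiam1 (0.499) and Dok3 (0.479). The genes most like Siglecf were Ccr3 (0.853), Gapt (0.843), Rab44 (0.829), Cebpe (0.801) and Adora3 (0.8). All points share their library, depth and cell makeup, and the low counts of Mcpt8 add noise to its values. Among the members, Ms4a2 varied with Cd200r3 (0.631), Mcpt8 (0.596), Cpa3 (0.567) and Fcer1a (0.556), and Fcer1a with Cd200r3 (0.552). Hdc varied with Siglecf (0.497), and Gata2 and Cpa3 had a rho of -0.347. With total counts as the scaling, 8 of these 10 nearest genes were again among the nearest.

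**Figure D5:**
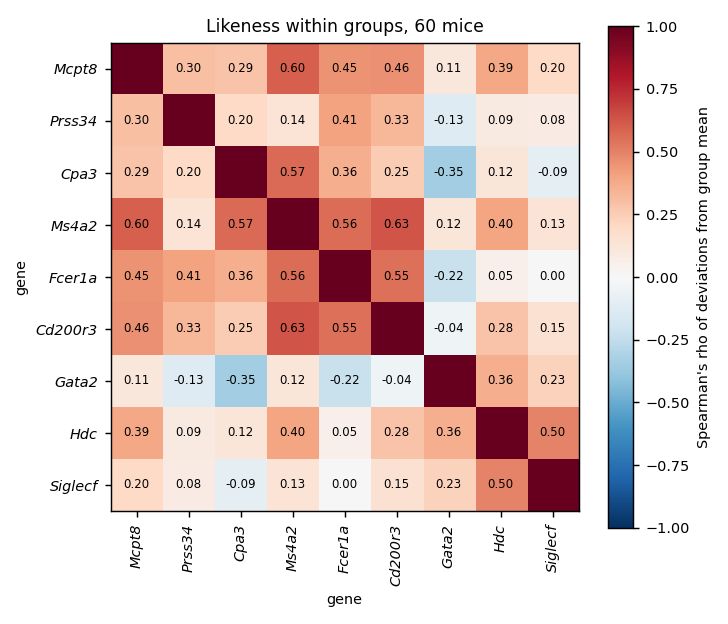
Cells give Spearman's rho between pairs of the 9 genes over 60 mice, after the group mean was subtracted, coloured from -1 to 1. The highest values are between Ms4a2 and Cd200r3 (0.631) and between Ms4a2 and Mcpt8 (0.596), and the lowest is between Cpa3 and Gata2 (-0.347).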

How the data were processed

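Whole blood of 60 mice was collected into PAXgene tubes. By the methods the libraries were stranded and made from total RNA after removal of ribosomal and globin transcripts, but the labels name poly(A) selection. The authors used Trimmomatic 0.36 for trimming, STAR 2.5.2b for alignment to GRCm38 and Subread 1.5.2 for counting, and deposited raw integer counts of uniquely assigned reads. The annotation release and strand setting are not given in the sources used here. The deposited tables of the authors' own DESeq2 comparisons, with their log2 fold changes, p-values and normalized values, were not used.

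The 10 count tables agreed for every mouse they shared, and no library repeated another of its group. Each pair of groups (12 pairs) and each of 3 interactions (contrasts of 4 groups) was fitted on its own with edgeR 4.0.16 (TMM, glmQLFit and glmQLFTest), keeping genes whose counts summed to 10 or more, in R 4.3.3 with limma 3.58.1 and version 1.17.8 of the data.table package. A call needed a Benjamini-Hochberg adjusted p under 0.05 over all genes tested and an absolute log2 fold change over 1. Standard errors are the log2 fold change divided by the square root of F. Figures and joins used Python 3.11.15 with matplotlib 3.10.9, numpy 2.4.6 and pandas 2.3.3. Total counts of 15099415 to 45589415 per mouse leave a few counts per library for the rarest members, so their values carry large counting error. Alternatives were total counts, RLE size factors, filterByExpr, no low-count filter, DESeq2 1.42.0, a fit of all 60 mice, no libraries with Alb above 100 CPM, and leaving out single mice. On simulated counts, edgeR recovered 91% of genes changed by 3 on the log2 scale and 43% of those changed by 1.5 for TBI against vehicle on Day 1 (24598 genes), and 79% and 13% between the irradiated groups (24069 genes). The changed genes were drawn only from those whose counts averaged 20 or more. Mcpt8, Prss34, Ms4a2, Fcer1a and Cd200r3 had median counts under 10 in both irradiated groups. The rates between the irradiated groups therefore do not describe these members.

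The members and gene lists were chosen with earlier results of these data known. All members were named, and the naming rule took from each list the called genes with the highest mean CPM, at most 3 per comparison. Some lists are given as counts alone. Ccr3, Epx, Mcpt1, Tpsb2 and the expression ratios were singled out after their values were seen. One list gene that the naming rule selects is not reported here.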

Additional observations from a re-analysis of the deposited data

Results flagged for a closer look

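In 11 of 90 sets of 6 mice (9 genes in 10 groups), the highest mouse stood apart from the next by more than Dixon's critical share of the range. Gaps at either end of a set were checked. Such a gap is expected in about 1 in 20 independent sets of normally distributed values. These sets share mice and some hold very low counts, so that rate need not hold here. Mouse 56, given 200 mg/kg and TBI, accounted for 3 of them, with 0.93 CPM of Mcpt8, 1.498 CPM of Ms4a2 and 2.01 CPM of Cd200r3. Vehicle-treated mouse 29 on Day 1, a library with raised Alb, had 3.18 CPM of Mcpt8 (next 1.87) and 1.20 CPM of Prss34. Other libraries with raised Alb were mouse 1 (50 mg/kg, Day 0) with 0.664 CPM of Prss34 and mouse 21 (200 mg/kg, Day 0) with 7.73 CPM of Cd200r3. The remaining values were 0.778 CPM of Cd200r3 in mouse 54 (vehicle and TBI), 22.3 CPM of Gata2 in mouse 27 (vehicle, Day 1), 146 CPM of Gata2 in mouse 42 (100 mg/kg, Day 1) and 18.2 CPM of Hdc in mouse 31 (50 mg/kg, Day 1).

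In 9 cases the effect of a treatment differed between settings in an edgeR interaction test. The effect of 200 mg/kg was higher with TBI than without for Mcpt8 (3.02) and Cd200r3 (1.87) and lower for Gata2 (-1.53), of which the first 2 rest on mouse 56. The call for Gata2 was lost with total counts. The effect of 100 mg/kg was lower on Day 1 than on Day 0 for Cd200r3 (-1.20) and higher for Gata2 (2.73). The effect of 200 mg/kg was lower on Day 1 for Mcpt8 (-1.34), Cpa3 (-1.21) and Cd200r3 (-1.48) and higher for Gata2 (2.44). All are differences of log2 fold changes.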

How the results depend on the processing

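No paired analysis was possible because each animal number belongs to 1 mouse and no number is shared between groups. Of 135 combinations of a member and a comparison, 70 were called in at least 1 setting. The values called in the reported fits kept their direction in every alternative. Under other settings 282 of these values kept the call and 21 lost it, and with 1 mouse left out 283 kept it and 14 lost it. Scaling by total counts raised the number of members called to 9 for 100 and 8 for 200 mg/kg on Day 1 and to 7 for the interaction of 100 mg/kg with day. Among the combinations called in at least 1 setting, uncalled values that turned sign with total counts were Hdc (-1.05 at 100 mg/kg, -1.08 at 200 mg/kg, -0.60 for the interaction of 100 mg/kg with day), Siglecf (-1.33 and -1.22), Fcer1a (-1.38 for that interaction) and Cpa3 (0.13, TBI against vehicle on Day 0). Without the libraries with raised Alb, 1 member was called for 100 and 2 for 200 mg/kg on Day 1, and 1 and 2 for their interactions with day. Signs turned there for Mcpt8 (0.33), Ms4a2 (0.0056) and Fcer1a (0.11) at 100 mg/kg and for Mcpt8 (0.06502) and Ms4a2 (0.023) in its interaction. In the fit of all 60 mice, 2 members were called at 200 mg/kg on Day 1 and 2 for its interaction with day, and Siglecf at 100 mg/kg was -0.018. With filterByExpr, Fcer1a at 100 mg/kg was 0.000837. The cause was not tested. Leaving out 1 mouse gave 2 to 4 calls at 100 and at 200 mg/kg on Day 1 (2 at 200 mg/kg without mouse 29), 0 at 50 mg/kg on Day 0 and between the irradiated groups, and 8 for TBI against either vehicle group. The log2 fold changes that turned sign with a mouse left out ranged from -0.068 to 0.18 for Siglecf, -0.68 to 0.13 for Mcpt8 and -0.29 to 0.053 for Fcer1a at 100 mg/kg on Day 1, and for Cpa3 from -1.05 to 0.005684 with TBI against vehicle on Day 1 and from -0.83 to 0.17 against Day 0. Without mouse 56, chosen after seeing the data, the interaction of 200 mg/kg with TBI called 1 member. Total counts moved 34 of 90 group means of members by over 1 SD. Of 671 alternative values for the 65 combinations called in no setting, 75 changed sign. Low counts limit Mcpt8, Prss34 and Fcer1a most.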
